A study of Mus musculus with 5 samples.

Results

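Nr4a1, Egr1 and Dusp1 are the 3 immediate early genes described here, out of 773 genes measured by a probe with a single gene symbol in developing mouse cerebellum. They were taken by name, and each is read by 1 of the 897 probes. Total RNA of the cerebellum was measured on arrays at 1 embryonic age, E18 (day 18), and at 4 ages after birth, P7, P14, P21 and P56, named by the postnatal day, in a study of the genetic basis of how this brain region is built. Each age has 1 column of values, described in the labels as a mean over 2 array experiments. All 5 groups are mouse cerebellum and differ by age alone as far as the labels go; strain, sex, treatment and number of animals were not stated in the labels used here. With 1 column per age there is no spread between samples and no test, so no p-value is given, and the number of arrays limits the precision.

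Immediate early genes are transcribed within minutes of a stimulus, from factors already present in the cell, and their transcripts are short-lived. In neurons the stimulus is often synaptic activity, which acts through calcium entry, calmodulin-dependent kinases and the MAP kinase cascade on the transcription factors CREB and SRF at the promoters of these genes. Nr4a1 (Nur77, NGFI-B) is an orphan nuclear receptor and Egr1 (zif268, Krox-24) a zinc finger transcription factor. Dusp1 (MKP-1) is a phosphatase that switches MAP kinases off and so limits the same cascade.

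The deposited numbers were taken to be percentages, in which every probe is scaled to its own maximum over the ages within an experiment before the experiments are averaged. Ages can therefore be compared within a gene, but levels cannot be compared between genes. All 3 genes were low at E18 and P7 and high at P21 and P56, but they differed in how low they began and in when they reached their high level. Over the same ages the median of all 897 probes ran the other way, at 84.5% at E18, 82.8% at P7, 55.5% at P14, 42.3% at P21 and 42.0% at P56. Any difference was called only at 2-fold or more.

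**Figure D1:**
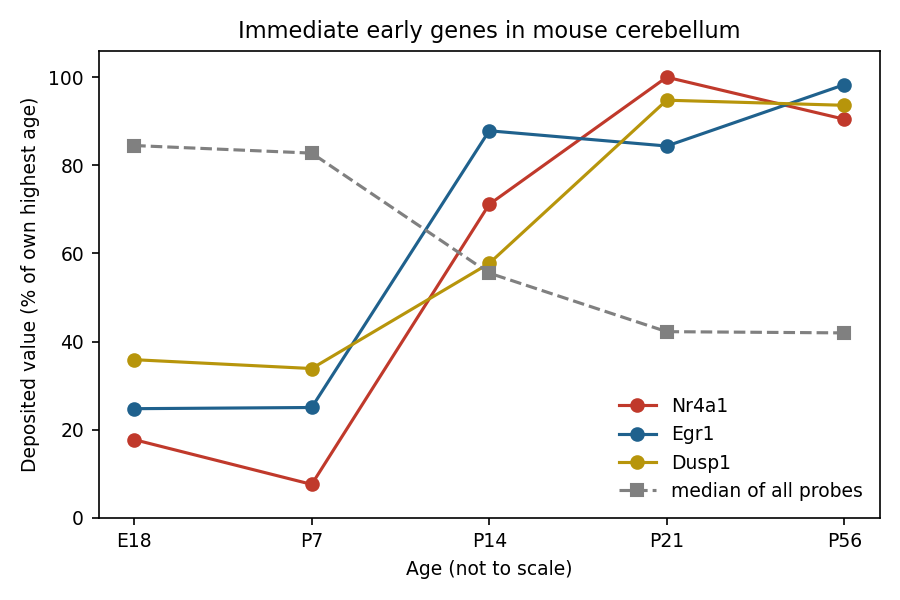
Deposited values (vertical axis, percent of the maximum of the probe) of Nr4a1, Egr1 and Dusp1 at the 5 ages (horizontal axis, not to scale), with the median of all probes as a dashed line. Each point is 1 deposited value with no error bar. Nr4a1 is lowest at P7 (7.59%), Egr1 is already at 87.8% at P14, and Dusp1 is at 57.8% at P14 and 94.8% at P21.

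Nr4a1 stood at 17.8% at E18, 7.59% at P7, 71.1% at P14, 100% at P21 and 90.5% at P56. Its range of 13.2-fold was the widest of the 3 genes, and it was the one with a called fall between the early ages. Egr1 stood at 24.8% at E18, 25.0% at P7, 87.8% at P14, 84.4% at P21 and 98.3% at P56. It had 2 levels, a low one before P14 and a high one from P14 on, with a range of 3.97-fold. Dusp1 stood at 35.9% at E18, 33.9% at P7, 57.8% at P14, 94.8% at P21 and 93.6% at P56. Its range was 2.80-fold, close to that of the median probe (3.14-fold), and P14 was an intermediate level between the low and the high ages.

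If each experiment behind a mean lies between 0 and 100, the mean limits what either experiment can have been. Nr4a1 at exactly 100% at P21 then means that P21 was the highest age in both, whereas Egr1 and Dusp1 reached 100% at no age, as happens when the experiments differ in their highest age. For Nr4a1 neither experiment can have been below 80.9% at P56 or above 35.5% at E18. For Egr1 these limits are 96.6% at P56 and 49.5% at E18, and for Dusp1 87.2% at P56 and 71.8% at E18. The P56 and E18 limits do not overlap for any of the 3 genes, so on this reading both experiments had each gene higher at P56. This is not particular to these genes. The limits separate when the ages differ by more than 50 points. Of all probes, 18.7% were higher at P56 than at E18 by that much, and 43% were lower. The reading itself comes from the values and is not stated in the labels.

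Nr4a1 and Dusp1 have a promoter entry in the RefSeq table used here (mouse build GRCm38.p6). Egr1, which was also higher at P56, has no entry there, so its promoter was not examined. The 250 bases before the annotated start are shown because both genes were higher at P56 than at E18 and because CREB, a factor through which neuronal activity acts, is known to bind the motif TGACGTCA and its shorter core TGACG. Capitals mark every TGACG, read on either strand, so that CGTCA is the same motif on the other strand. Sequences run 5′ to 3′ on the strand of the gene.
Nr4a1: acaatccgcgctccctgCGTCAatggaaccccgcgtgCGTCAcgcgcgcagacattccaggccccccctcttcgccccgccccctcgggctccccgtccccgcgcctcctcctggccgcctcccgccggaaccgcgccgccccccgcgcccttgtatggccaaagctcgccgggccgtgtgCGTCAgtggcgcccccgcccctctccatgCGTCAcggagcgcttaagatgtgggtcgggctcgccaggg
Dusp1: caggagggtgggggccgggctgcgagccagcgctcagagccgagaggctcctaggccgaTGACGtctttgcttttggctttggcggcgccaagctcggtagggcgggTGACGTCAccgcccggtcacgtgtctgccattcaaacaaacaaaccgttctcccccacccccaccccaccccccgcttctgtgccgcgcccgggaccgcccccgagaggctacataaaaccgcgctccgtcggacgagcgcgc

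The Nr4a1 sequence is chr15:101266596-101266845 on the plus strand. It lies inside the span that RefSeq gives the gene, 101253902 to 101274795, before one of its annotated starts. The Dusp1 sequence is chr17:26508473-26508722 on the minus strand, directly before the gene, which spans 26505591 to 26508472.

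The Nr4a1 sequence holds 4 TGACG matches, all on the opposite strand, and the Dusp1 sequence holds 3. Of all 32851 promoter windows in the table, several of which can belong to 1 gene, 17.8% hold TGACG at least once, 0.688% hold it 3 times or more and 0.137% hold it 4 times or more. In Dusp1 a pair of the matches overlap and form the whole motif TGACGTCA, 143 to 136 bases before the start, which 1.55% of windows hold; the Nr4a1 window holds none. In Nr4a1 each of the 4 matches is part of the 7 letters TGCGTCA. That longer motif was searched for only after it was seen in the sequence, and 1.75% of windows hold it at least once. The Egr1 binding motif GCGGGGGCG occurs once in the Nr4a1 window, 60 to 52 bases before the start, and overlaps a GC box there; it is in 2.57% of windows and not in that of Dusp1. GC boxes (GGGCGG) occur 3 times in each, and 8.47% of windows hold as many. The CArG box of SRF (in 1.47% of windows), the NR4A motif AAAGGTCA (1.34%) and TATAAA (12.4%) have no exact match in either window. The windows are rich in G and C, with 74.4% in Nr4a1 and 68.4% in Dusp1, against a median of 52.4% over all windows, and a GC-rich window matches GC-rich motifs more easily. A match is a string of letters, and binding was not measured. Whether any of these motifs has a part in the change with age was not tested.

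In P56 against E18, the oldest against the youngest age, all 3 immediate early genes rose, while 22.6% of all probes were higher by 2-fold or more (203 of 897) and 52.5% were lower (471). Nr4a1 stood at 90.5% at P56, against 17.8% at E18, a log2 ratio of 2.35 or 5.10-fold. Egr1 stood at 98.3% at P56, against 24.8% at E18, a log2 ratio of 1.99 or 3.97-fold. Dusp1 stood at 93.6% at P56, against 35.9% at E18, a log2 ratio of 1.38 or 2.61-fold. These are not extreme values for the table: 60 probes had a higher ratio than Nr4a1, 84 a higher one than Egr1 and 157 a higher one than Dusp1. The median log2 ratio over all probes was -1.07, and relative to it Nr4a1 stood at 3.42, Egr1 at 3.06 and Dusp1 at 2.45. Dividing each column by its median moves the median ratio by 1.01 and gives 272 probes higher and 147 lower, and quantile normalization gives 246 and 206. With columns divided by their medians Nr4a1 was 10.3-fold, Egr1 7.99-fold and Dusp1 5.25-fold higher. With quantile normalization Nr4a1 was 5.26-fold, Egr1 4.05-fold and Dusp1 2.89-fold higher.

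In whole tissue, more RNA per cell and more cells of a type that express the gene cannot be told apart. Markers of other cell types moved over the same ages. All 6 measured markers of mature granule cells rose in P56 against E18, lying between 79.5% and 100% at P56 and between 0.02% and 31.0% at E18. All 4 of Purkinje cells rose as well, and so did all 3 of oligodendrocytes, which lay between 46.8% and 60.4% at P56, against 0.38% to 1.08% at E18. All 5 markers of dividing cells fell, to between 0.03% and 21.1% at P56, against 49.5% to 91.9% at E18, and all 4 of immature neurons fell, to between 0.03% and 3.50% at P56, against 61.0% to 100% at E18. The 3 astrocyte markers rose from E18 to P56, but Gfap and Aqp4 were highest at P7. Gfap stood at 100% at P7 and 44.2% at P56, and Aqp4 at 98.9% at P7 and 77.4% at P56, while S100b was highest at P56. The endothelial gene Kdr fell 3.60-fold. Of the microglial genes Ctss rose 3.36-fold while Laptm5 stood at 48.9% at P56, against 80.4% at E18. No marker of this set was at exactly 0 at any age, but no deposited value of any probe was below 0.01, so this does not show detection. None of the listed blood markers was among the named probes. The part of these changes in the values of Nr4a1, Egr1 and Dusp1 was not tested. Granule cell and Purkinje cell markers, which define the cerebellar cortex, had their highest values from P14 on. Because each probe is scaled to its own maximum, these values do not give the level of a transcript and cannot check the tissue label.

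**Figure D2:**
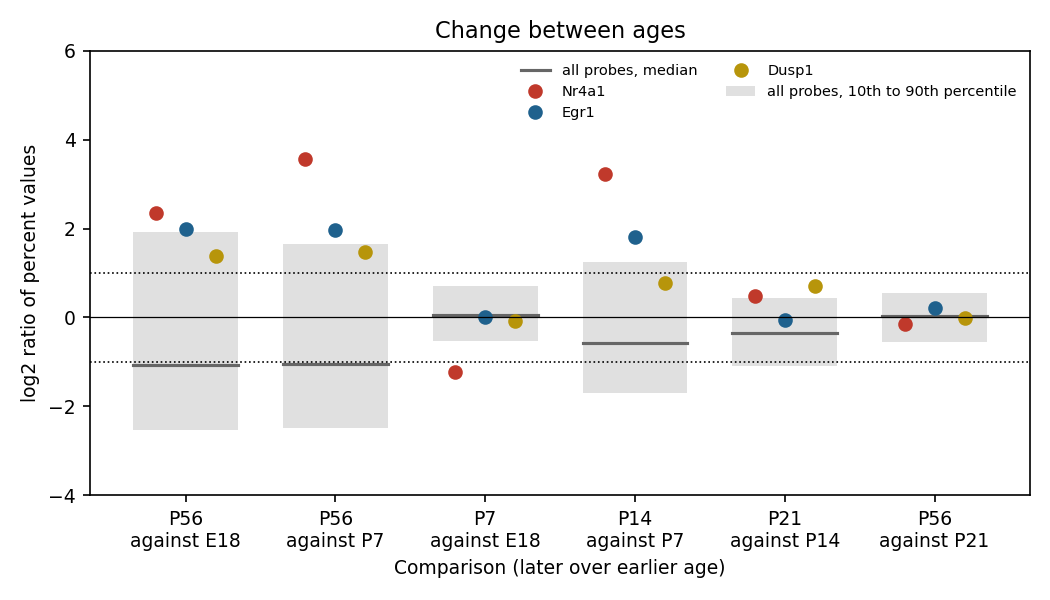
Log2 ratios (vertical axis) of Nr4a1, Egr1 and Dusp1 for 6 comparisons of a later with an earlier age (horizontal axis), over the 10th to 90th percentile (grey bars) and median (grey lines) of all 897 probes. Dotted lines mark 2-fold. Nr4a1 and Egr1 lie above the grey bar in P14 against P7 (3.23 and 1.81), and Nr4a1 lies below it in P7 against E18 (-1.23).

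Between E18 and P7, the first postnatal week in which granule cell precursors divide, Nr4a1 fell and the other two genes stayed within 2-fold. Nr4a1 stood at 7.59% at P7, against 17.8% at E18, which is 2.34-fold lower (log2 ratio -1.23). Of all probes 2.79% were lower and 5.8% higher by 2-fold or more, and 9 had a lower ratio than Nr4a1. The value fell by 10.2 points at the low end of the scale, and the limits on single experiments overlap (at most 15.2% at P7 and at most 35.5% at E18). With the 10th percentile of all values (20.4%) set as the lowest value, the difference disappears, since both ages lie below it. Egr1 stood at 25.0% at P7, against 24.8% at E18, and Dusp1 at 33.9% at P7, against 35.9% at E18. These differences, 1.01-fold and 1.06-fold, are smaller than the median gap of 1.18-fold between the ratios of 2 probes of 1 gene (14 genes), a gap that leaves out variation between animals and arrays. The largest such gap in this step was 11.7-fold, wider than the 2.34-fold fall of Nr4a1, which is read by 1 probe.

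From P7 to P14 came the main change of both transcription factor genes. Nr4a1 rose 9.37-fold, with 71.1% at P14, against 7.59% at P7 (log2 ratio 3.23), and 11 of the 897 probes had a higher ratio. Egr1 rose 3.51-fold, with 87.8% at P14, against 25.0% at P7 (log2 ratio 1.81), and 41 probes had a higher ratio. Thus 2 of the 3 genes rose, against 14.4% of all probes, while 24.7% of all probes were lower. For both genes the 2 ages differ by more than 50 points, so that each experiment must have been higher at P14 if it lies between 0 and 100. Such a rise was found in 7.8% of all probes, and a fall of more than 50 points in 16.7%. Dusp1 stood at 57.8% at P14, against 33.9% at P7, which is 1.70-fold and below the limit for a call. With columns divided by their medians (238 probes higher and 105 lower; as deposited, 129 and 222) it was 2.54-fold, and with quantile normalization (224 and 164) 2.50-fold, so whether Dusp1 changed in this step depends on the scale between columns. The size of the rises depends on it too: with columns divided by their medians Nr4a1 was 14-fold and Egr1 5.23-fold higher, and with quantile normalization Nr4a1 was 15.4-fold and Egr1 5.46-fold higher. With the 10th percentile as the lowest value the log2 ratio of Nr4a1 was 1.80, since its value at P7 lies below that limit.

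The genes differed in how much of their change was complete at P14. Counted in points from E18 to the gene's highest age, Egr1 had reached 85.8% of its change at P14, Nr4a1 64.9% and Dusp1 37.1%. The lowest of P14, P21 and P56 was 4.01-fold above the higher of E18 and P7 for Nr4a1, 3.37-fold for Egr1 and 1.61-fold for Dusp1. Of all probes 10.3% reached 2-fold by this measure, which was chosen after the values were seen. The order in timing was not tested, because the spread between samples is not known.

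In P21 against P14 none of the 3 genes was higher by 2-fold, as were 3.23% of all probes (29 higher and 118 lower). Dusp1 came nearest, with 94.8% at P21, against 57.8% at P14, a ratio of 1.64-fold that 43 probes exceeded. With columns divided by their medians (61 probes higher and 51 lower) this step was 2.16-fold for Dusp1, and with quantile normalization (57 and 40) it was 1.54-fold. Nr4a1 stood at 100% at P21, against 71.1% at P14 (1.41-fold), and Egr1 at 84.4% at P21, against 87.8% at P14 (1.04-fold, lower). The Dusp1 ratio lies above and the Egr1 ratio below the median gap of 1.38-fold between 2 probes of a gene for this step, and that of Nr4a1 (1.41-fold) is close to it. The largest gap, 3.23-fold, is wider than all 3 ratios.

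In P56 against P21 none of the 3 genes changed by 2-fold, as did 2.68% of probes upward and 2.23% downward. The ratios were 1.11-fold lower for Nr4a1, 1.16-fold higher for Egr1 and 1.01-fold lower for Dusp1, all smaller than the median gap of 1.3-fold between 2 probes of a gene. The order of P21 and P56 is therefore not resolved for Egr1 or Dusp1. For Nr4a1 the order rests on the value of exactly 100% at P21, which on the reading above puts P56 no higher than P21 in either experiment, by a margin that is not called. In P56 against P7, the age of lowest Nr4a1, all 3 genes rose, by 11.9-fold for Nr4a1, 3.93-fold for Egr1 and 2.76-fold for Dusp1, while 18.8% of all probes were higher by 2-fold or more and 52.3% were lower. With columns divided by their medians Nr4a1 was 23.5-fold, Egr1 7.74-fold and Dusp1 5.45-fold higher, and with the 10th percentile as the lowest value the log2 ratio of Nr4a1 was 2.15 in place of 3.58. On the deposited scale 12 probes had a higher ratio than Nr4a1 in that comparison.

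The profiles of the 3 genes were set against each other and against the other named probes by the root mean square difference of log2 values over the 5 ages, each profile centred on its own mean, so that 0 means the same shape and size of change. By this distance Egr1 and Dusp1 were nearest to each other (0.41), Nr4a1 and Egr1 were 0.67 apart, and Nr4a1 and Dusp1 0.91. Pearson correlation, which leaves out the size of the change, gave another order of the pairs. It was 0.954 for Nr4a1 and Egr1, 0.930 for Nr4a1 and Dusp1, and 0.919 for Egr1 and Dusp1. The median distance over 784 probes was 1.94 from Nr4a1, 1.39 from Egr1 and 1.16 from Dusp1. The 3 genes were not each other's closest profiles. Of the 784 probes, 20 were closer to Nr4a1 than Egr1 was, and 71 were closer than Dusp1 was. For Egr1, 74 probes were closer than Dusp1 and 168 closer than Nr4a1. For Dusp1, 99 probes were closer than Egr1 and 222 closer than Nr4a1.

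The 5 profiles closest to Nr4a1 were those of St8sia5, a sialyltransferase gene (distance 0.27), Gas7 (0.29), Grin2c, an NMDA receptor subunit gene of mature granule cells (0.33), Ank1, an ankyrin gene (0.41), and Gpd1, the glycerol-3-phosphate dehydrogenase gene (0.42). St8sia5 stood at 6.96% at P7, against 10.7% at E18, and Gas7 at 10.2% at P7, against 16.4% at E18, differences that were not called. Closest to Egr1 were Jph3, a junctophilin gene (0.12), Dock9 (0.15), Camk2b, the beta subunit gene of calmodulin-dependent kinase II (0.15), Tmem62 (0.16) and Hpcal1, a neuronal calcium sensor gene (0.16). Closest to Dusp1 were Ly6c2, a surface antigen gene with near-identical paralogs that the probe may also read (0.05), Stard10, a lipid transfer protein gene (0.06), Specc1 (0.13), Napb, which encodes a SNARE disassembly factor (0.13), and Ak4, an adenylate kinase gene (0.14). Likeness over 5 points that share their columns is a description. By Pearson correlation in place of the distance, 1 of the 5 genes named for Nr4a1, 1 of those for Egr1 and 2 of those for Dusp1 stayed among the closest 5.

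**Figure D3:**
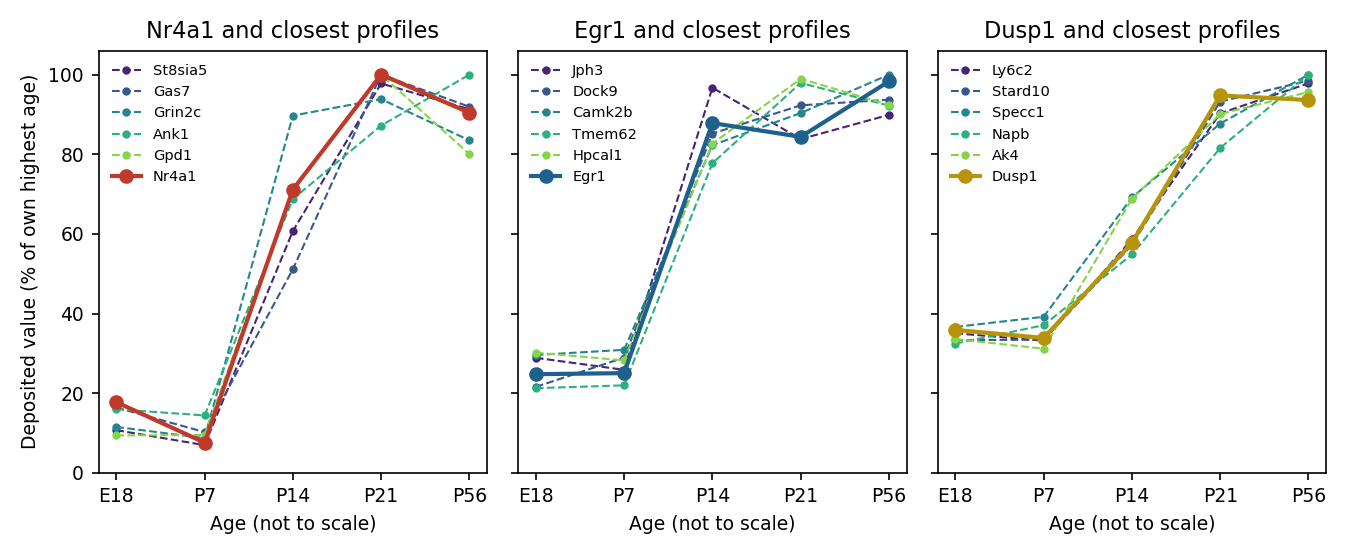
Deposited values (percent of the maximum of the probe) of Nr4a1, Egr1 and Dusp1 (thick lines) and of the 5 probes with the most similar profile to each (dashed lines) at the 5 ages (not to scale). The 5 profiles around Dusp1 lie within a distance of 0.14, those around Nr4a1 within 0.42.

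Few other genes of the same response were among the named probes. Of 43 other immediate early genes listed, 4 were measured. In P56 against E18 1 of them rose and 1 fell, with a median log2 ratio of 0.36 against -1.07 for all probes. Of all probes 22.6% were higher and 52.5% lower. Per1, a circadian clock gene that stimuli also induce, rose 4.77-fold, and stood at 21.0% at E18, 32.1% at P7, 77.0% at P14, 47.4% at P21 and 100% at P56. In Per1 the value at P21 lay below those at both neighbouring ages. Plk2, a polo-like kinase gene of synaptic scaling, fell 2.56-fold, with 39.1% at P56, against 100% at E18. The other two were within 2-fold: Sgk1, a kinase gene, stood at 74.4% at P56, against 72.9% at E18, and Gadd45b, a stress and activity response gene, at 52.8% at P56, against 32.7% at E18. Gadd45b had its highest value at P14 and, like Nr4a1, its lowest at P7. In P14 against P7 it rose 5.59-fold, with 89.6% at P14, against 16.0% at P7, and Per1 rose 2.40-fold in that step. Plk2 was 1.16-fold and Sgk1 1.1-fold lower at P14 than at P7, and neither was called. Over all probes 14.4% were higher and 24.7% lower by 2-fold or more in P14 against P7.

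Of 13 partners and relatives of the 3 proteins, 2 were measured and both fell, with a median log2 ratio of -2.15, in a comparison in which 52.5% of all probes were lower. Dusp6, another MAP kinase phosphatase gene, stood at 37.3% at P56, against 87.1% at E18 (2.33-fold lower), and Ptpn5, the gene of the neuronal tyrosine phosphatase STEP that also acts on MAP kinases, at 11.9% at P56, against 100% at E18 (8.43-fold lower). Dusp6 held its level through P14 (91.9%) and stood at 38.5% at P21, the step in which Dusp1 stood at 94.8% at P21, against 57.8% at P14. Of 45 kinases and factors upstream 5 were measured, of which 2 rose and 1 fell, with a median log2 ratio of 0.61. Over all probes 22.6% were higher and 52.5% lower, with a median of -1.07. Camk2b rose 3.38-fold and Ppp3ca, the catalytic subunit gene of the calcium-dependent phosphatase calcineurin, 2.74-fold. Nras, a Ras GTPase gene of the MAP kinase cascade, fell 2.93-fold. Prkar1b, a regulatory subunit gene of protein kinase A read by 2 probes, was 1.52-fold higher, and Calm3, a calmodulin gene, stood at 53.7% at P56, against 88.7% at E18 (1.65-fold lower).

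Dusp1 is also induced by glucocorticoids, and 3 of 11 listed genes of the glucocorticoid and stress response were measured. In P56 against E18 2 of them rose and 1 fell (median log2 ratio 1.57). Of all probes 22.6% were higher and 52.5% lower in that comparison (median -1.07). Hsd11b1, the enzyme gene that regenerates active glucocorticoid, rose 19.7-fold and Mt2, a metallothionein gene, 2.97-fold, while Fkbp5, a co-chaperone gene that glucocorticoids induce, fell 5.07-fold, with 19.7% at P56, against 100% at E18. These directions are on the deposited scale. With columns divided by their medians, and with quantile normalization, Plk2, Dusp6 and Nras were within 2-fold and Gadd45b was higher by 2-fold or more; Calm3 changed sign on both scales. Sgk1 and Prkar1b were higher by 2-fold or more with columns divided by their medians. Per1, Camk2b, Ppp3ca, Hsd11b1 and Mt2 stayed higher and Ptpn5 and Fkbp5 lower on both scales.

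**Figure D4:**
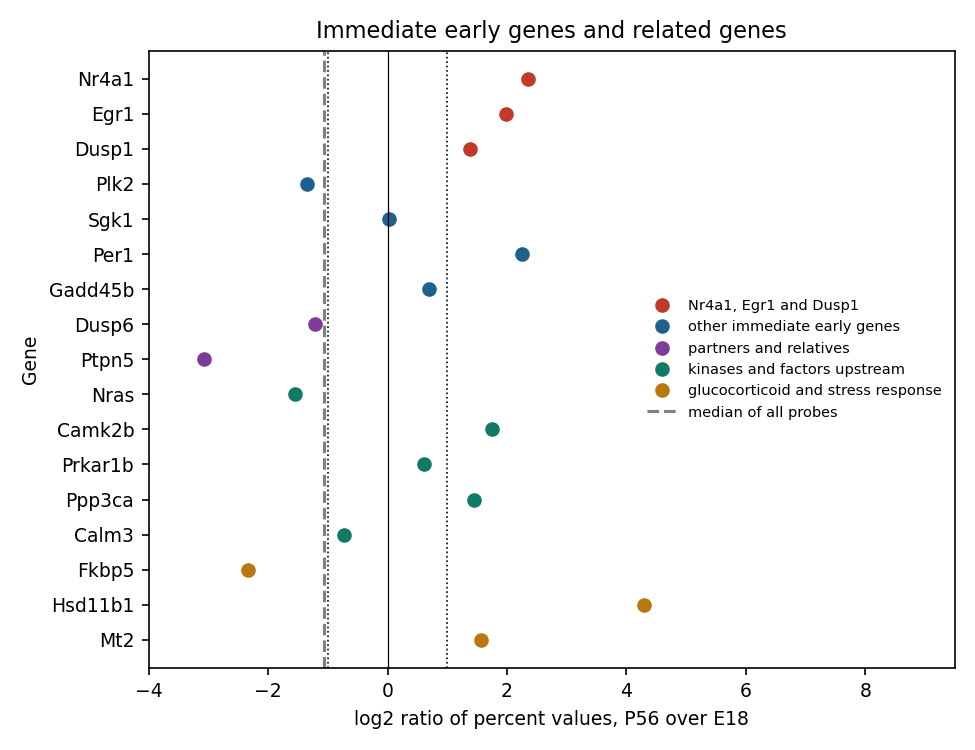
Log2 ratios of P56 over E18 (horizontal axis) for Nr4a1, Egr1 and Dusp1 and for the measured genes of 4 related lists (rows, coloured by list). Dotted lines mark 2-fold and the dashed line the median of all probes (-1.07). Nr4a1 (2.35) and Per1 (2.25) lie close together, and Ptpn5 (-3.08) and Hsd11b1 (4.30) are the ends of the range.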

How the data were processed

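Per the labels, the deposited values are means over 2 array experiments per age; the sources used here state neither the background correction and normalization between arrays nor how probes were chosen. The authors' deposited values were read as percent of the probe's maximum over the ages, since all 4485 lie between 0.01 and 100 and 420 of 897 probes stand at exactly 100 at 1 age. Symbols are those of the platform annotation (an older one): a single symbol for 787 probes, several for 16 and none for 94, and 0 symbols changed when updated by gene identifier in RefSeq (GRCm38.p6, 784 found). Ratios were taken as log2, with the 20 values under 1% set to 1% (none of them of Nr4a1, Egr1 or Dusp1), and called at 2-fold. Calculations used Python 3.11.15, numpy 2.4.6, pandas 2.3.3 and matplotlib 3.10.9 and were tested on simulated data. Promoter motifs were matched exactly on both strands, and a palindrome was counted once. Named were the 3 genes, the 5 closest profiles of each, listed genes past 2-fold in P56 against E18 and cell type markers. Sgk1, Gadd45b, Prkar1b and Calm3 were added once values were known. Peg3, Gh and Ndrg1 fall under none of these and are named only as neighbours of the 3 genes in the order of entries. The 3 genes and the lists were chosen with earlier results of these data known.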

Additional observations from a re-analysis of the deposited data

How the results depend on the processing

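No paired analysis was possible because each age has 1 column of values. The limits are the absence of replicates, a percent scale read from the values, an unknown normalization between columns and a table that may hold probes selected for change. In P56 against E18 and P56 against P7 all 3 immediate early genes were higher under every alternative but the 3-fold threshold, which Dusp1 missed. In P7 against E18 the count of these genes lower was 1, and it was 0 with the 10th percentile as the lowest value (Nr4a1 ratio 0) and at 3-fold. In P21 against P14 the count higher was 0, and it was 1 with columns divided by their medians and at 1.5-fold, Dusp1 in each case. Egr1 changed the order of P14 and P21 with columns divided by their medians and of E18 and P7 with quantile normalization. The following counts over all probes moved by over 1.5 times. With columns divided by their medians, 147 probes were lower in P56 against E18 (471 as deposited), 271 higher and 141 lower in P56 against P7 (169 and 469), 238 higher and 105 lower in P14 against P7 (129 and 222), and 61 higher and 51 lower in P21 against P14 (29 and 118). With quantile normalization, 206 were lower in P56 against E18, 192 lower in P56 against P7, 59 lower in P7 against E18 (25 as deposited, with 52 higher and 44 on this scale), 224 higher in P14 against P7, and 57 higher and 40 lower in P21 against P14. With the 10th percentile as the lowest value, 24 were higher in P7 against E18, 63 lower in P21 against P14, and 13 higher and 10 lower in P56 against P21 (24 and 20 as deposited). At 3-fold the counts higher and lower were 135 and 234 in P56 against E18, 97 and 219 in P56 against P7, 20 and 1 in P7 against E18, 53 and 104 in P14 against P7, 4 and 38 in P21 against P14, and 9 and 4 in P56 against P21. At 1.5-fold they were 129 and 81 in P7 against E18, 213 and 447 in P14 against P7, 63 and 311 in P21 against P14, and 82 and 78 in P56 against P21. Of the 5 closest profiles, 1, 1 and 2 were shared by Pearson correlation and 2, 2 and 3 with percent values, for Nr4a1, Egr1 and Dusp1. The Dusp1 window has 3 TGACG and 0 TGCGTCA matches. Beyond what each setting changes by construction, the cause was not tested.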

Other observations

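In the deposited table Nr4a1 and Egr1 stand 3 entries apart, with Peg3 and Etv1 between them. Etv1, a transcription factor gene of granule cells, was at 9.43% at E18, 10.4% at P7, 66.9% at P14, 89.3% at P21 and 96.8% at P56, and Peg3, an imprinted gene, was at 29.1%, 35.9%, 46.2%, 78.7% and 100% at the same ages. Dusp1 stands elsewhere, next to Gh, the growth hormone gene, which was at 36.2% at E18, 29.1% at P7, 22.2% at P14, 100% at P21 and 25.4% at P56. Gh, unlike Nr4a1 and Dusp1, was thus low again at P56, when Nr4a1 stood at 90.5% and Dusp1 at 93.6%. Ndrg1, the entry on the other side of Dusp1, was at 44.55% at E18, 23.8% at P7, 36.2% at P14, 69.65% at P21 and 100% at P56. Like Dusp1, it was thus higher at P21 and P56 than at the earlier ages.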
